A study of Mus musculus with 2 samples.

Results

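Insulin and insulin-like growth factor 1 (IGF1) signalling genes were taken here as 10 genes matched by symbol: Igf1, Insr, Igf1r, Irs1, Irs2, Pik3ca, Pik3r1, Akt1, Akt2 and Foxo1. All 10 were found among the 55536 genes of the gene tables. The data are total RNA sequencing of heart from 2 mice, both female, of strain B6CASTF1/J at 2 months of age, a first-generation hybrid of C57BL/6 and CAST parents, with no treatment named in the labels. The 2 animals form 1 group (n = 2), so the data give levels, their spread and a comparison of 1 animal with the other. Reads were quantified against the mm10 assembly, which is built from C57BL/6 sequence, and the effect of CAST alleles on these levels was not tested.

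Insulin and IGF1 bind related tyrosine kinase receptors, encoded by Insr and Igf1r, which phosphorylate the docking proteins IRS1 and IRS2. These recruit PI 3-kinase, a dimer of a catalytic subunit (such as the Pik3ca product) and a regulatory subunit (such as the Pik3r1 product), whose lipid product brings the kinases AKT1 and AKT2 to the membrane. AKT acts on glucose uptake, protein synthesis and survival, and phosphorylates FOXO transcription factors so that they leave the nucleus. In the heart the pathway is known for its role in physiological growth and in the control of fuel use.

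The libraries held 41862417 and 41790009 gene reads, and 12022 genes reached at least 1 TPM, a length-scaled level that sums to the same total in each library, in both animals. Cardiomyocyte markers summed to 30313 and 35134 TPM, with the alpha myosin gene Myh6 at 7602 and 8371 TPM, whereas the 6 liver markers summed to 3.56 and 4.81 TPM, most of it from Cyp2e1 (174 and 232 reads), with Alb at 5 and 0 reads. The 6 erythroid markers summed to 43218 and 51837 TPM, led by the globin gene Hbb-bs at 15831 and 18104 TPM. They thus took a larger part of the TPM total, in which levels are given, than the cardiomyocyte markers. Of the skeletal muscle markers, the fast myosin genes Myh4 (9.54 and 4 reads) and Myh1 (22 and 1 reads) were low, the latter higher in animal 1 by the test used below, and Ckm, also a heart gene, held 47618 and 50730 reads. TPM carried a shift between the animals: across the 16133 genes that held 20 reads or more, the median log2 ratio of animal 2 over animal 1 was 0.22 on the TPM scale and -0.0024 for reads scaled by the trimmed mean of M values (TMM). Animals are therefore compared on scaled reads below, and TPM is used to compare genes. In whole tissue, fewer cells of a type and less RNA per cell cannot be told apart.

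All 10 genes were expressed in both hearts, at mean levels from 4.89 to 74.6 TPM, and together they made up 271.6 and 327.8 TPM in animals 1 and 2 (299.7 ± 39.8, SD, n = 2). The AKT kinases stood highest, with Akt1 at 74.6 ± 11.96 TPM and Akt2 at 73.8 ± 8.12 TPM. Next came the regulatory PI 3-kinase subunit Pik3r1 at 45.9 ± 4.13 TPM and the insulin receptor Insr at 44.9 ± 6.28 TPM, then Irs1 at 18.9 ± 4.35 TPM and Pik3ca at 18.3 ± 1.20 TPM. Irs2 (7.32 ± 1.47 TPM), Igf1 (5.71 ± 1.67 TPM), Igf1r (5.45 ± 0.0566 TPM) and Foxo1 (4.89 ± 0.658 TPM) were lowest. These 4 genes lay below the median of 8.57 TPM among genes reaching 1 TPM in both animals, and the other 6 lay above it.

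The order was not resolved at every step. The ranges of the 2 animals overlapped between Akt1 and Akt2, between Pik3r1 and Insr, between Irs1 and Pik3ca, between Irs2 and Igf1, and between Igf1 and Igf1r. The ranges were apart at the other steps: Akt2 above Pik3r1 (lowest value 68.1 against highest value 48.9 TPM), Insr above Irs1 (40.4 against 21.99 TPM), Pik3ca above Irs2 (17.4 against 8.36 TPM) and, by a small margin, Igf1r above Foxo1 (5.41 against 5.35 TPM). This last step turned in both animals when only the transcript with the most reads of each gene was counted (Igf1r 4.2 and 5.11 TPM, Foxo1 4.42 and 5.35 TPM). A second quantification of the same reads, at transcript level, placed the 10 genes at a mean sum of 365.6 TPM. It gave the same order in both animals at 6 of the 9 steps. In animal 1 it put Pik3ca above Irs1 and Igf1r above Igf1, and in animal 2 it put Igf1 above Irs2, at steps where the animals also overlapped in the gene table.

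**Figure D1:**
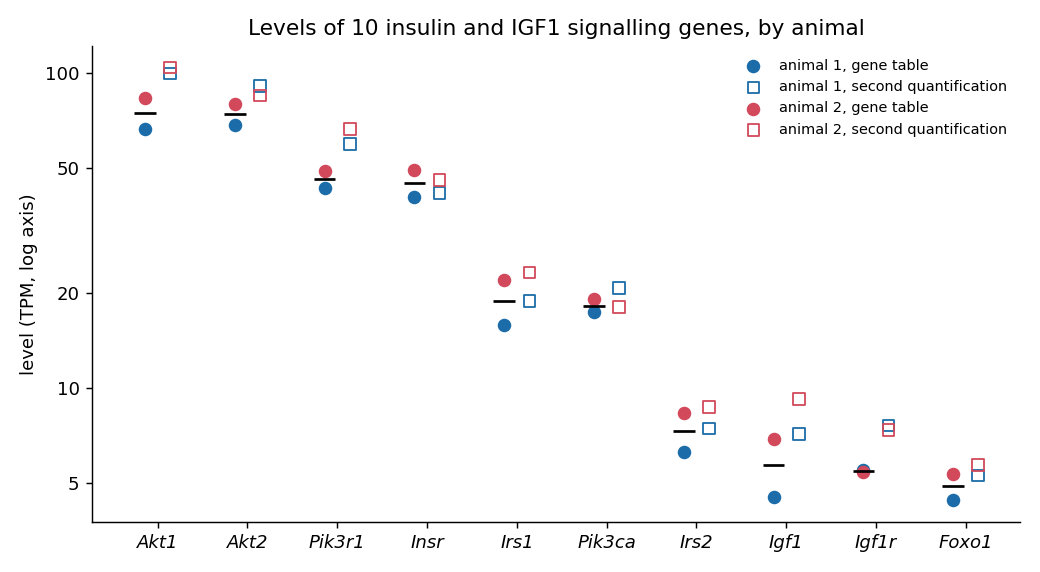
Level of each gene in TPM (log axis) for the 2 animals, with filled circles for the gene table, a bar at their mean, and open squares for the second quantification. Akt1 and Akt2 lie highest, at 66.1 to 83.0 TPM in the gene table, and Irs2, Igf1, Igf1r and Foxo1 lie between 4.42 and 8.36 TPM.

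Between the animals, 4 of the 10 genes differed beyond counting error, all of them higher in animal 2: Irs1, Igf1, Irs2 and Akt1. The difference was small in each, with ratios of scaled reads from 1.05 to 1.18, and no member reached 2-fold, which 1.39% of all genes tested did. Without a minimum fold, the share of all genes that differed was 11.3% of the 16133 tested, 6.60% higher in animal 2 and 4.75% higher in animal 1. Members are well covered, and among the 7017 genes with at least 1000 reads, a class that holds all 10, the share was 18.0%. The test is a two-sided exact binomial test of 1 library against the other with Benjamini-Hochberg adjustment at 0.05. It sees counting error alone, has no replicate check, and so also picks up ordinary variation between animals.

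Irs1 held 5315 and 6634 reads in animals 1 and 2, a ratio of 1.18 (exact 95% interval 1.14 to 1.23, adjusted p = 4.31e-18 in the exact binomial test). Igf1 held 708 and 868 reads, a ratio of 1.16 (1.05 to 1.29, adjusted p = 0.0300, exact binomial test). Irs2 held 1449 and 1736 reads, a ratio of 1.14 (1.06 to 1.22, adjusted p = 0.00499, exact binomial test). These 3 genes, a ligand and both docking proteins, had the largest ratios among the members, and their intervals overlapped. Akt1 held 6111 and 6795 reads, a ratio of 1.05 (1.02 to 1.09, adjusted p = 0.0285, exact binomial test).

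The other 6 genes did not pass the test. Pik3r1 held 9559 and 10472 reads, a ratio of 1.04 (1.01 to 1.07) with an adjusted p of 0.0606 in the exact binomial test, and it passed at 0.05 under 4 of 5 other settings. Pik3ca (2669 and 2926 reads, ratio 1.04), Foxo1 (1404 and 1529 reads, 1.03) and Igf1r (1829 and 1947 reads, 1.01) had intervals that included 1. The interval of Insr (9584 and 9830 reads, ratio 0.972) ran from 0.945 to 1.0003. Akt2 (6046 and 6116 reads, ratio 0.959, interval 0.925 to 0.994) had an adjusted p of 0.132 in the exact binomial test. Over the 10 genes the median log2 ratio was 0.055, against -0.0024 over all genes tested. No member lay outside the central 95% of log2 ratios of genes with at least 1000 reads, which ran from -0.22 to 0.31.

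**Figure D2:**
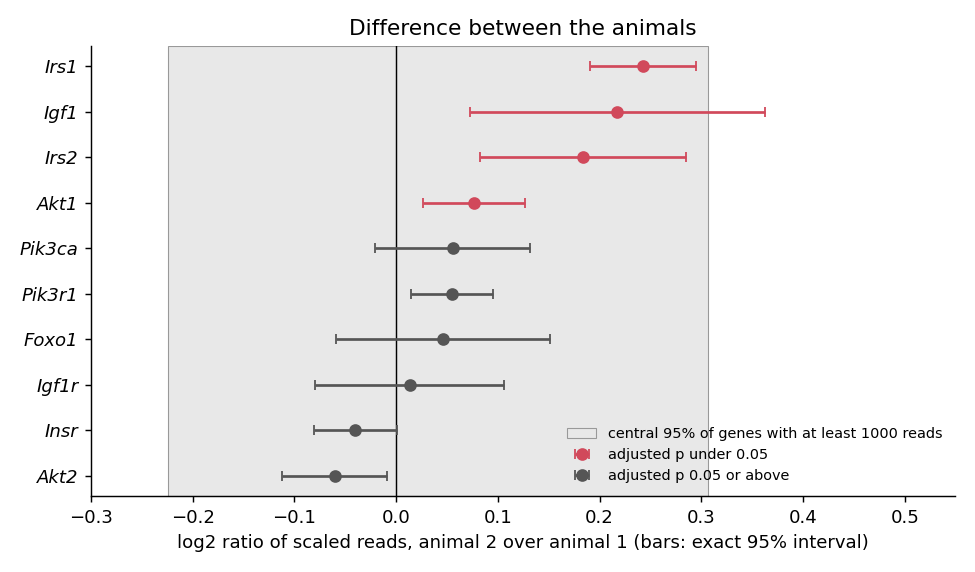
Log2 ratio of scaled reads, animal 2 over animal 1, for each gene, with exact 95% intervals that cover counting error only. Red marks the 4 genes with an adjusted p under 0.05, and all 10 points lie inside the grey band, the central 95% of genes with at least 1000 reads.

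Several markers of non-myocyte cell types were also higher in animal 2. Of all genes tested, 6.60% were higher in animal 2 and 4.75% in animal 1. Among genes with at least 1000 reads, 18.0% differed in either direction. Of the 7 mural markers 7 were higher in animal 2 by the same test (sum 182.9 and 258.7 TPM), of the 7 fibroblast markers 5 (275.8 and 367.4 TPM), of the 7 endothelial markers 5, with 1 lower (186.5 and 237.3 TPM), and of the 7 macrophage markers 4 (63.3 and 86.3 TPM). Of the 6 adipocyte markers 5 could be tested and 4 were higher in animal 2, 3 of them by at least 2-fold (sum 23.2 and 59.8 TPM, with the adipocyte hormone gene Adipoq at 68 and 197 reads). Among 7 cardiomyocyte markers, 1 was higher in animal 2 and 4 in animal 1, with a median log2 ratio of -0.02. This split depended on scaling. With total gene reads 5 were higher in animal 2 and 0 in animal 1 (median 0.062), and with spike-in reads 3 and 2 (0.0086). Median log2 ratios were 0.28 for mural, 0.27 for fibroblast, 0.17 for endothelial and 0.23 for macrophage markers, close to the 0.24 of Irs1, the 0.22 of Igf1 and the 0.18 of Irs2, and 1.20 for adipocyte markers. Akt1, also called higher in animal 2, was at 0.076, below each of these medians. None of the defining markers of these types, Pdgfrb, Pdgfra, Cdh5, Csf1r, Adipoq and Myh6, was at 0 in either animal. Their part in the result was not tested.

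Of the 4 ligand genes, the 2 growth factor genes were expressed and the 2 insulin genes were not detected. Ins1 and Ins2 held 0 reads in both animals, which allows up to 0.0717 and 0.0718 CPM of gene reads, with 3 reads as the limit and for counting error only. Igf1 (ENSMUSG00000020053.18, chr10:87858265-87937042, plus strand), a growth factor made by many tissues, stood at 4.53 and 6.89 TPM in animals 1 and 2, and at 7.14 and 9.25 TPM in the second quantification. Its ratio on the TPM scale, 1.52, was above that of scaled reads, and the mean transcript length deposited for the gene was 4311 bases in animal 1 and 3874 in animal 2. Igf2, the fetal growth factor gene, stood at 25.9 and 26.4 TPM with 1668 and 1554 reads, and was higher in animal 1 on scaled reads (ratio 0.883, 0.824 to 0.947, adjusted p = 0.00633, exact binomial test). The log2 ratio of Igf1 over Igf2 within an animal was -2.52 and -1.94 (-2.23 ± 0.41, SD, n = 2). In the second quantification it was -2.19 and -1.57, again lower for Igf1 in both animals. When only the transcript with the most reads of each gene was counted it was -0.47 and 0.31 (mean -0.079), with the sign turning between the animals.

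The annotation holds 8 Igf1 transcripts, all coding, which differ at both ends of the precursor. At the start, a leader exon from either of 2 alternative first exons joins the shared exon that follows. At the end, some transcripts hold a 52-base exon that changes the carboxyl-terminal extension, a part removed from the mature hormone. These forms are known as class 1 and class 2 leaders and as the Ea (exon absent) and Eb (exon present) extensions. The coding parts that differ are printed here from the M21 annotation of mm10, because the reads fall on these forms unequally. They were singled out after their values were seen. In the leader sequences, capitals mark the coding part of the leader exon (chr10:87859350-87859412 for Igf1-202 and chr10:87861371-87861385 for Igf1-205, plus strand) and lower case the first bases of the shared exon. In the pair after them, lower case is the end of the shared coding exon, and capitals mark the 52-base exon of Igf1-203 (chr10:87915298-87915349) or the coding part of the last exon of Igf1-202 (chr10:87930675-87930731).
Igf1-202, leader: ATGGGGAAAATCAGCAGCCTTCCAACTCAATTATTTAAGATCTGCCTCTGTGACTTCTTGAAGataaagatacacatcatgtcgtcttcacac
Igf1-205, leader: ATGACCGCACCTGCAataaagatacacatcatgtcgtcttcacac
Igf1-203, extension with the exon: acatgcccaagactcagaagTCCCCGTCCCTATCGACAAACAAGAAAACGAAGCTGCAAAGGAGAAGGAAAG
Igf1-202, extension without it: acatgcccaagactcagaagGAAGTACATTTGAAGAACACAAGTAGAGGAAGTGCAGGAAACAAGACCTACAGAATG

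Transcripts with the longer leader of Igf1-202 took most Igf1 reads, 693 in animal 1 and 820 in animal 2, against 15.2 and 48.0 reads for the shorter leader. The second quantification gave 747 and 889 reads against 52.1 and 82.8. Of the shorter leader, Igf1-205 had 11.7 and 14.5 reads in the first table, with a deposited spread of 6.48 and 8.57 reads. As shares of TPM, which weight a short transcript more, the longer leader had 89.2% and 66.0% in the first table and 53.9% and 40.2% in the second quantification. The 2 estimates therefore differed on which leader held the larger share of molecules in animal 2, and in neither animal did the second quantification put the longer leader above 60%. The 3 transcripts with the 52-base exon took 96.6 and 99.9 reads, 36.5% and 43.5% of TPM in the first table and 23.1% and 23.0% in the second. Igf1-201, with a longer exon from the same start, took 3.57 and 2.38 reads. Both estimates gave the 4 transcripts without either exon the larger share in both animals. Igf1-202, at 7052 bases the longest of the 8, held 85.1% of reads and 48.8% ± 2.57 of TPM (SD, n = 2). The other named transcripts were Igf1-203 at 27.8% ± 12.4 of TPM, Igf1-206 at 12.3% ± 17.3 (0 reads in animal 1, 31.1 in animal 2) and Igf1-205 at 9.48% ± 0.677, with 33.8% in the second quantification. Transcript shares were not tested.

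Circulating IGFs are held by binding proteins, and 6 of 8 genes of that list reached 1 TPM in both animals. Igfbp7 was the most abundant at 63.4 and 90.4 TPM, followed by Igfbp5 at 40.3 and 41.6 TPM and Igfbp4 at 30.4 and 35.97 TPM. Of 6 tested, 3 were higher in animal 2, namely Igfbp7 (ratio 1.22), Igfbp3 (1.24) and Igfbp4 (1.12), and 1 was higher in animal 1, Igfbp5 (0.882). Over all genes tested 11.3% differed, and 18.0% of those with at least 1000 reads. Igfbp1, a liver gene and a classical target of FOXO1, held 0 reads in both animals.

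Of the receptors, Insr was expressed well above Igf1r in both hearts. Insr (ENSMUSG00000005534.10, chr8:3122061-3279617, minus strand) stood at 40.4 and 49.3 TPM, and at 41.6 and 45.6 TPM in the second quantification. Igf1r (ENSMUSG00000005533.10, chr7:67952827-68233668, plus strand) stood at 5.49 and 5.41 TPM, and at 7.61 and 7.35 TPM in the second quantification. The values of the 2 genes were far apart, and the log2 ratio of Insr over Igf1r was 2.88 and 3.19 (3.03 ± 0.22, SD, n = 2), an 8.19-fold difference. It was 2.54 in the second quantification and 2.54 for the main transcript of each gene, a 5.83-fold difference in both. Igf2r, which clears IGF2 and sorts lysosomal enzymes, stood at 37.6 and 43.5 TPM, and Insrr, an insulin receptor relative, held 3 reads in each animal. None of the 3 receptor genes tested differed between the animals beyond counting error, where 11.3% of all genes tested did.

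The insulin receptor is made in 2 forms that differ by a short exon before the cleavage site of the precursor: the A form lacks it, and the B form, known for metabolic tissues such as liver and fat, holds it. In the annotation the 36-base exon (chr8:3181702-3181737, minus strand of mm10) is present in Insr-203, a coding fragment of 672 bases and 5 exons, and absent from Insr-201, the single full-length transcript, with 9355 bases and 21 exons. Capitals mark the exon in the first sequence and the 3 bases on either side of its missing place in the second. Both are printed from the M21 transcripts because they show what tells the forms apart in these reads.
Insr-203, exon present: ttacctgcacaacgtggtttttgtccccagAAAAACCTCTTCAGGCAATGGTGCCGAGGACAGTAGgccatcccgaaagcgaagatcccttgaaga
Insr-201, exon absent: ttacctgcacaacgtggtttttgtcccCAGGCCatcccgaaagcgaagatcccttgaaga

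Most Insr reads were given to the transcript without the exon. Insr-201 took 8710 reads in animal 1 and 8891 in animal 2 (90.7% of the gene's reads), and Insr-203 took 55 and 119. Of the TPM of these transcripts taken as a pair, the one with the exon had 9.20% and 17.8%, and 11.4% and 19.7% in the second quantification. Between the animals, Insr-203 had a ratio of 2.05 (exact 95% interval 1.48 to 2.88) and Insr-201 a ratio of 0.968 (0.940 to 0.997), and the intervals did not overlap. In the second quantification, with 49 and 96 reads, the ratio of Insr-203 was 1.87 (1.31 to 2.69). It was singled out after its values were seen, it was not tested across all transcripts, and its interval covers counting error but not the division of reads between overlapping transcripts, whose deposited spread was 9.78 and 13.3 reads. A full-length transcript with the exon is not in the annotation, so reads of such an RNA outside the stretch of Insr-203 would have been counted elsewhere, and these shares are not shares of receptor forms.

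**Figure D3:**
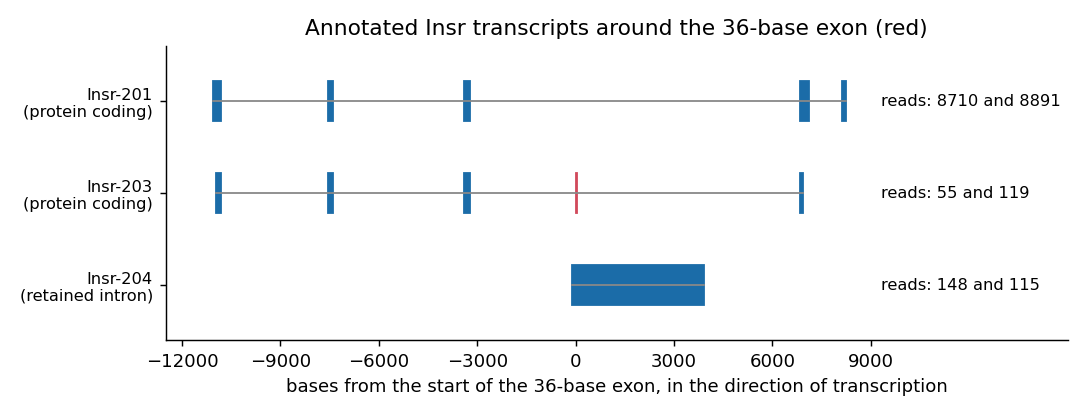
Exons (boxes) of 3 annotated Insr transcripts by distance in bases from the start of the 36-base exon, drawn in the direction of transcription. Boxes are to scale, except that the 36-base exon is drawn slightly wider. The estimated reads of animals 1 and 2 are at the right. Insr-203 holds the exon (red) with 55 and 119 reads, Insr-201 skips it with 8710 and 8891, and Insr-204 spans it in a retained intron with 148 and 115.

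Receptor transcripts not classed as protein coding weighed on the gene levels, by a share that differed between the quantifications. At Insr, 3 of 5 annotated transcripts were classed as retained intron or nonsense-mediated decay and took 8.44% of reads but 29.9% of TPM, nearly all in Insr-202 (27.8% ± 0.831 of TPM). In the second quantification the 3 had 13.6% of TPM, and Insr-202 had 10.9%. The coding fragment Insr-203 is not among the 3, and had 9.49% of TPM and 13.5% in the second quantification. Insr-201 alone stood at 25.4 and 28.8 TPM in the first table. At Igf1r, 5 of 6 were retained-intron transcripts and took 3.70% and 0.994% of reads but 23.5% and 5.55% of TPM. Their mean share of TPM was 14.5%, and 31.3% in the second quantification. Igf1r-201, the coding transcript of 11409 bases, held 97.7% of Igf1r reads and stood at 4.2 and 5.11 TPM in the first table. On the TPM scale it was higher in animal 2, whereas the gene was slightly higher in animal 1. That scale carries the shift between the animals given above, and on scaled reads the gene had a ratio of 1.01. Igf1r-206, a 733-base retained-intron transcript, had 14.01 and 0 reads in the first table and 28.1 and 27.3 reads in the second.

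The docking proteins were unequal, with Irs1 above Irs2 in both animals. Irs1 (ENSMUSG00000055980.2, chr1:82233101-82291416, minus strand) stood at 15.8 and 21.99 TPM, and at 18.9 and 23.3 TPM in the second quantification. Irs2 (ENSMUSG00000038894.7, chr8:10984681-11008458, minus strand) stood at 6.28 and 8.36 TPM, and at 7.45 and 8.70 TPM in the second quantification. Animal 2 was the higher for both genes in both quantifications. The log2 ratio of Irs2 over Irs1 was -1.33 and -1.40 (-1.37 ± 0.04, SD, n = 2), and -1.38 in the second quantification. Each gene has 1 annotated transcript, so no read had to be divided within it, and this ratio moved least of the 6 pairs compared between the quantifications and transcripts counted.

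Of the 9 genes of receptor substrates and adaptors, 8 reached 1 TPM in both animals, and Irs4 held no read in animal 1 or animal 2. The adaptors Grb2 and Crk, which link receptors to RAS and other signals, stood at 38.8 and 47.0 TPM and at 29.4 and 36.5 TPM, above both IRS genes. Of 8 tested in this list, Irs1 and Irs2 differed between the animals and none of the adaptors did. The share that differed was 11.3% of all genes tested and 18.0% of those with at least 1000 reads.

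Both PI 3-kinase members were expressed, the regulatory subunit above the catalytic one. Pik3r1 (ENSMUSG00000041417.15, chr13:101680563-101768217, minus strand) stood at 43.0 and 48.9 TPM, and at 59.5 and 66.3 TPM in the second quantification. Pik3ca (ENSMUSG00000027665.13, chr3:32397671-32468486, plus strand), the p110-alpha catalytic subunit, stood at 17.4 and 19.1 TPM, and at 20.8 and 18.1 TPM in the second quantification, so that the TPM order of the animals turned. On scaled reads its ratio was 1.04, and 1.06 in the second quantification. The log2 ratio of Pik3r1 over Pik3ca was 1.30 and 1.35 (1.33 ± 0.04, SD, n = 2), a 2.51-fold difference. It was 1.70 in the second quantification and 1.79 for the main transcripts.

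A short retained-intron transcript took part in the Pik3ca level. Pik3ca-204, of 440 bases, had 88.9 and 71.8 reads, 2.89% of the gene's reads on average, but 40.3% and 33.0% of its TPM. Pik3ca-203, which encodes the whole protein of 1068 codons, had 91.7% of reads and stood at 9.96 and 12.3 TPM. On the TPM scale, which carries a shift towards animal 2, this coding transcript was the higher in animal 2 in both tables (12.3 and 13.5 TPM in the second). Its reads in the first table were 2435 and 2699, and it was not compared on scaled reads.

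Pik3r1 encodes several regulatory subunits from different starts: the long p85-alpha form and shorter forms that lack its amino-terminal part. The first 60 coding bases of the long Pik3r1-202 (724 codons) and of the shorter Pik3r1-201 (454 codons) show that they begin in different sequence, on chromosome 13, minus strand. Capitals mark the start codon.
Pik3r1-202: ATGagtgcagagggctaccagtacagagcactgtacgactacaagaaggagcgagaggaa
Pik3r1-201: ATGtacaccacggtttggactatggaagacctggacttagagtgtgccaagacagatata

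The long form led in both animals. Pik3r1-202 took 8897 and 10008 reads, 79.5% and 87.5% of TPM, and 65.7% and 64.4% of TPM in the second quantification. The 3 shorter coding transcripts had 4.97% and 3.56% of TPM together, against 18.0% and 20.5% in the second quantification, where Pik3r1-205, a 701-base fragment with 0 reads in the first table, had 79.6 and 101.9 reads. In the second quantification Pik3r1-201 had 7.82% and 8.98% of TPM, and the fragment Pik3r1-205 10.2% and 11.6%. The subunit form to which this fragment belongs was not tested, so the summed share is not a share of shorter forms. The share of these shorter transcripts depended on the quantification in both animals, and the lead of the long form did not. The Pik3r1 forms and fragments were singled out after their values were seen.

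Among the 9 PI 3-kinase subunit genes, 7 reached 1 TPM in both animals, and none of the 9 tested differed between the animals beyond counting error. Pik3r1 and Pik3ca were the most abundant of them, followed by Pik3r2, a second regulatory subunit, at 8.24 and 9.68 TPM. Of 14 genes that restrain the pathway, 11 reached 1 TPM in both animals, with a median level of 9.85 TPM over the 14. They ranged from the cytokine signalling inhibitor Socs1 at 0.24 and 0.21 TPM to the receptor-binding adaptor Grb14 at 73.8 and 91.7 TPM, with the lipid phosphatase Inppl1 at 49.3 and 64.0 TPM and the tensin Tns2 at 42.1 and 50.2 TPM next to it. None of the 14 differed beyond counting error under TMM scaling. Scaled by total gene reads, which shifts the median log2 ratio of all genes to 0.077, 6 of the 14 were higher in animal 2. The share of all genes tested that differed was 11.3% with TMM and 20.9% with total gene reads.

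Akt1 and Akt2 had nearly the same level, and their order turned between the animals. Akt1 (ENSMUSG00000001729.14, chr12:112653821-112674884, minus strand), the widely expressed kinase linked to growth and survival, stood at 66.1 and 83.0 TPM. Akt2 (ENSMUSG00000004056.15, chr7:27591552-27640826, plus strand), the kinase linked to insulin action on glucose, stood at 68.1 and 79.5 TPM. The log2 ratio of Akt1 over Akt2 was -0.04 and 0.06 (0.01 ± 0.07, SD, n = 2). The second quantification gave 99.4 and 103.8 TPM for Akt1 and 90.8 and 84.6 TPM for Akt2, a log2 ratio of 0.21, with Akt1 the higher in both animals.

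The coding sequences of Akt1 (1440 bases) and Akt2 (1443 bases) in the M21 transcripts are 76.9% identical. Their longest identical stretch is 32 bases, and no window of 100 bases is shared. The deposited spread of read assignment was 0 reads for Akt1 and 10 and 10.2 reads for Akt2, 0.165% and 0.167% of its reads.

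The AKT genes differed in how their reads were divided. Akt1-201 had 97.1% of Akt1 reads and 92.6% ± 1.62 of its TPM. In the second quantification its share was 75.7%, and the fragment Akt1-208 had 20.1%. Akt2 has 14 annotated transcripts. Akt2-201 had 62.9% of reads and 52.3% ± 0.0743 of TPM, but 25.8% ± 3.70 in the second quantification, where Akt2-204, with the same coding sequence, had 39.9%. Transcripts with the whole Akt2 coding sequence held 75.1% and 72.1% of TPM, and 69.7% and 73.9% in the second quantification. Akt2-201 and Akt2-204 share the later first exon. Whole coding transcripts with that exon held 52.7% and 53.4% of TPM, and 63.6% and 67.8% in the second quantification. Those with the first exon at the gene start held 22.4% and 18.8%, and 6.11% in both animals in the second quantification. Both shares moved more between the quantifications than the share of whole coding transcripts. Counted by the main transcript alone, the log2 ratio of Akt1 over Akt2 was 0.83. The other named Akt2 transcripts were Akt2-206 (18.0% of TPM, 0 in the second quantification), Akt2-214 (10.9%, 0 in the second) and Akt2-210 (2.05%, 17.5% in the second).

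**Figure D4:**
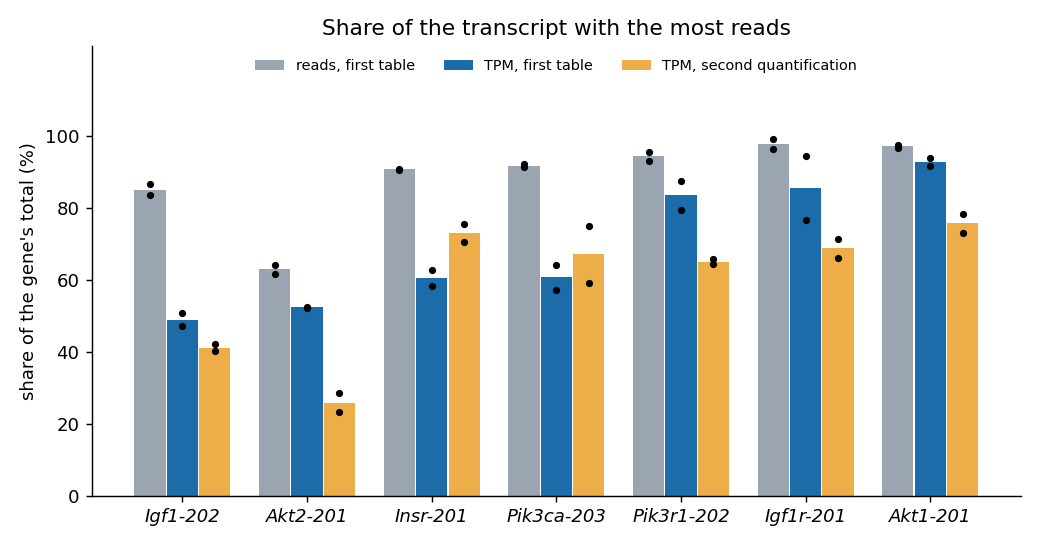
Share of each gene's total held by its transcript with the most reads, for the 7 members with more than 1 transcript, with bars at the mean and points for the 2 animals. By reads the share lies between 62.9% and 97.7%, and by TPM, which weights short transcripts more, between 48.8% and 92.6% in the first table and between 25.8% and 75.7% in the second quantification.

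All 10 genes of AKT and its upstream kinases reached 1 TPM. After Akt1 and Akt2 the highest was Sgk1, a related kinase, at 25.9 and 39.2 TPM, and it was higher in animal 2 (ratio 1.23, adjusted p = 1.05e-09, exact binomial test). Mlst8, a subunit of both mTOR complexes, was higher in animal 1 (397 and 333 reads, ratio 0.795). All 14 genes of AKT substrates and downstream steps reached 5 TPM. Slc2a4, which encodes the insulin-responsive glucose transporter GLUT4, led them at 141.6 and 159.6 TPM, followed by Tsc2, a brake on mTOR, at 42.7 and 45.9 TPM and Tbc1d4, which holds GLUT4 inside the cell, at 35.5 and 39.8 TPM. Of these 14, 4 were higher in animal 1 and 0 in animal 2: Slc2a4 (ratio 0.948), Tsc2 (0.940), Tbc1d1 (0.853) and Pfkfb2 (0.859). Scaled by total gene reads, the direction of this list turned, with 1 higher in animal 1 and 2 higher in animal 2. Across all genes tested, the share that differed was 11.3% with TMM and 20.9% with total gene reads.

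Foxo1 was the lowest of the 10 genes by gene level in both quantifications, but not by main transcript. Foxo1 (ENSMUSG00000044167.6, chr3:52268336-52353221, plus strand) stood at 4.42 and 5.35 TPM, and at 5.29 and 5.70 TPM in the second quantification, from 1 annotated transcript. Counted by main transcripts alone, it lay above Igf1r-201 (4.2 and 5.11 TPM) and Igf1-202 (2.29 and 3.24 TPM) in both animals. The relatives of Foxo1 were more abundant, with Foxo3 at 24.5 and 31.9 TPM and Foxo4 at 22.4 and 25.4 TPM. The log2 ratio of Foxo3 over Foxo1 was 2.47 and 2.58 (2.52 ± 0.08, SD, n = 2), a 5.74-fold difference, and 2.31 for the main transcripts. Foxo3 was higher in animal 2 by a ratio of 1.09 (5573 and 6381 reads), and Foxo1 did not differ beyond counting error. The difference between those 2 ratios was not tested.

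Known FOXO target genes included some of the most abundant of all lists, and they did not share a direction. Of 22, 20 reached 1 TPM, led by the mitochondrial antioxidant enzyme Sod2 at 370.5 and 422.8 TPM, Pdk4, which restrains glucose oxidation, at 297.5 and 278.3 TPM, and the mitophagy receptor Bnip3 at 112.5 and 118.9 TPM. Of 20 tested, 5 were higher in animal 2, namely Pck1, Ppargc1a (ratio 1.32), Klf15 (1.13), Sesn1 (1.11) and the member Irs2. The 4 higher in animal 1 were Pdk4 (0.826), Bcl2l11 (0.853), Fbxo32 (0.908) and Bnip3 (0.926). The median log2 ratio of the list was -0.04, and scaling by total gene reads moved the split to 8 and 2. Of all genes tested, 11.3% differed with TMM and 20.9% with total gene reads. Pck1, a gluconeogenic enzyme gene also active in fat, held 261 and 761 reads, a ratio of 2.76 (2.40 to 3.19), near the 2.75 of the adipocyte gene Adipoq, and the part of fat in it was not tested.

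**Figure D5:**
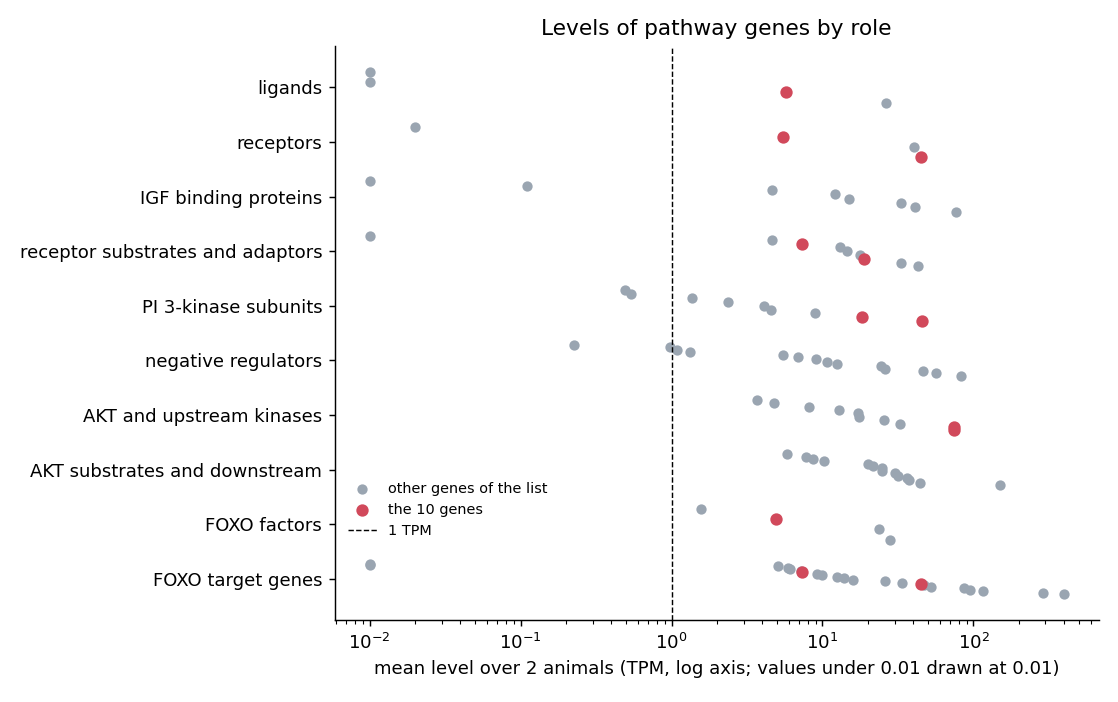
Mean level over the 2 animals (TPM, log axis) of every gene in the 10 pathway lists, with the 10 members in red, and a dashed line at 1 TPM. Values under 0.01 TPM are drawn at 0.01, and genes on more than 1 list, such as Insr and Irs2, appear on each. The members lie at 4.89 TPM or above, and Akt1, Akt2, Pik3r1 and Pik3ca lead their lists.

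Over the 84 other genes of the 10 lists, 72 reached 1 TPM in both animals, and 20 of 77 tested (25.97%) differed between them, 9 higher in animal 2 and 11 higher in animal 1, with a median log2 ratio of 0.0036. The share was 11.3% over all genes tested and 18.0% among genes with at least 1000 reads. The lists were chosen with earlier results of these data known, and the difference between these shares was not tested. The split of calls depended on scaling. With TMM 58.1% of all genes called were higher in animal 2, with ERCC spike-in reads 71.8%, and with total gene reads 88.8%. Over the other pathway genes the spike-in scaling gave 11 higher in animal 2 and 9 in animal 1, and total gene reads gave 26 and 4. Irs1, Igf1, Irs2 and Akt1 were called higher in animal 2 under all of these scalings.

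Genes that overlap the members added little to these values. No source used here says whether reads were counted by strand, and the 6 annotated genes on the opposite strand of a member held 0 to 2 reads per animal. Same-strand predicted genes inside Foxo1 (Gm38034), Pik3r1 (Gm36638) and Pik3ca (Gm37123) held up to 1.94% of the reads of the gene around them, and were counted apart from it.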

How the data were processed

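Heart RNA of 2 mice was measured, 1 library each, from 300 ng of RNA with ribosomal RNA reduced and ERCC spike-ins added; per the labels, the mice are biological replicates 1 and 2. Per the file headers, the gene table and the first transcript table have RSEM's layout: their expected counts are the authors' estimates of reads, not normalised, and their TPM was scaled by the authors over all entries. A further transcript table, in kallisto's layout with the authors' own estimated counts and TPM, is called the second quantification. No source used here gives tool versions or filters.

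Names, places and sequences came from GENCODE M21 (mm10). Expected counts were rounded, genes with at least 20 reads kept (16133), and libraries scaled by TMM in edgeR 4.0.16 (R 4.3.3). Each gene was compared by an exact binomial test with Benjamini-Hochberg adjustment, tested on simulated data. Log2 ratios of scaled reads used a prior count of 0.5. Intervals and limits (3 reads for a count of 0) cover counting error only, since reads carry no molecular identifiers. Entries with no gene identifier held 4 and 2 reads (9.5e-06% and 4.8e-06%) and were left out. Transcript shares are percent of a gene's TPM or reads, computed from the deposited values. Named were all members, the 3 most abundant genes of each pathway list, every listed gene passing the test, and member transcripts with at least 10% in either table. Genes of the lists outside this rule (Insrr, Irs4, Igfbp1, Ins1, Socs1) and the transcript classes were chosen after their values were seen. The members and lists were chosen with earlier results of these data known. Alternatives were DESeq2 1.42.0 size factors, total gene reads, spike-in reads, no count filter, the second quantification, other TPM totals and, added after seeing the data, main transcripts alone and shares of reads.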

Additional observations from a re-analysis of the deposited data

How the results depend on the processing

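The count of members that differed between the animals was 4, and 4 to 6 under the alternatives: 5 with DESeq2 size factors, 6 with total gene reads, 5 with spike-in reads, 4 with no count filter and 5 in the second quantification, against 11.4%, 20.9%, 12.5%, 6.76% and 11.1% of all genes. Irs1, Igf1, Irs2 and Akt1 passed in each. Pik3r1 passed in 4 of them (adjusted p from 1.41e-09 to 0.0478, exact binomial test) and Pik3ca with total gene reads (adjusted p = 0.00392, exact binomial test). The summed level of the members moved from 299.7 to 365.6 TPM in the second quantification and to 717.4 TPM when rescaled over nuclear protein-coding genes, and to 271.6 or 327.8 TPM with 1 animal left out. In the second quantification the log2 ratio was 2.54 for Insr over Igf1r, 0.21 for Akt1 over Akt2 and 1.70 for Pik3r1 over Pik3ca. With main transcripts alone these were 2.54, 0.83 and 1.79, with -0.079 for Igf1 over Igf2 and 2.31 for Foxo3 over Foxo1. The cause was not tested. The main transcript held at least 50% of TPM in 9 members, 8 in the second quantification and 10 by reads. Pathway genes detected numbered 82 at 1 TPM, 85 at 0.5 TPM and 67 at 5 TPM. No member that passed the test changed direction. Directions turned, with total gene reads, for the AKT substrate list (from 0 higher and 4 lower in animal 2 to 2 and 1). The cardiomyocyte markers turned as well (from 1 higher and 4 lower to 5 and 0, and to 3 and 2 with spike-in reads). With total gene reads the ratios of Insr (1.03) and Akt2 (1.01) also turned, neither past the threshold. Directions further turned in the second quantification for Igf1r (0.992) and the TPM order of the animals for Pik3ca. With main transcripts they turned for Igf1 over Igf2 in animal 2 (0.31), and Foxo1 lay above Igf1r in both animals. No paired analysis was possible because the study has 1 group, and leaving out an animal leaves no comparison of animals. With 2 animals, no spread within a condition can be set against the differences, and values near 15 reads, as for the shorter Igf1 leader, are limited by depth.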
